A study of Mus musculus with 12 samples.

Results

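This account covers 32 mouse genes of cholesterol synthesis, transport, and sterol sensing in Th9 cells, a subset of helper T cells that makes the cytokine IL-9. The genes were taken from a list of known pathway members and targets of the transcription factor SREBP2, by a rule that names genes and uses no measured value, although earlier results of these data were known when the list was made. All 32 were found among the 32051 genes measured, and all 32 were among the 13733 genes that were tested, for which the 12 libraries had to average 0.1 FPKM or more. FPKM are fragment counts scaled to exon length and to library size, so levels can be compared roughly between genes and between libraries. They do not correct for differences in RNA composition between libraries.

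Cells sense cholesterol in the endoplasmic reticulum. When sterols are scarce, SCAP escorts SREBP2 to the Golgi, where proteases release the active factor, which then turns on the genes of the mevalonate and sterol pathway. When sterols are plentiful, INSIG proteins hold SCAP back, and oxidized sterols activate the LXR receptors. These receptors turn on genes of cholesterol efflux such as *Abca1* and *Abcg1*, and also *Mylip*, whose product degrades lipoprotein receptors. Activated T cells are known to need this pathway for growth and membrane synthesis.

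The cells came from spleens of C57BL/6J mice. Naive CD4+ T cells were brought to the Th9 state in vitro with IL-4 at 10 ng/mL plus TGF-β at 1 ng/mL, and RNA was isolated on day 4 of culture. Every group shared this polarization and stimulation through CD3 and CD28, so none of the groups is unstimulated. The control group received DMSO, the vehicle. The EpA group received EpA, a cyclic lipopeptide of the surfactin family, at 10 µM. The fatostatin group received 5 µM fatostatin, a small molecule used to inhibit SREBP activation, and the last group received 10 µM EpA together with 5 µM fatostatin. Each of the 4 groups had 3 libraries. The labels number the replicates without saying whether they came from separate mice or cultures, so p-values measure only the spread between these libraries, which may be technical.

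Between 36019739 and 43656682 reads per library fell on genes. All 8 T cell markers were expressed, and their summed level was 656 to 666 FPKM with DMSO, 580 to 584 with EpA, 634 to 653 with fatostatin, and 558 to 562 with both compounds. This sum did not hold for each marker, since *Cd4* stood at 78.2 ± 0.147 FPKM with DMSO, 86.8 ± 0.533 with EpA, 84.3 ± 1.41 with fatostatin, and 90.5 ± 1.44 with both (SD, n = 3). The summed level of the 4 Th9 culture markers, led by *Il9*, was 402 to 406 with DMSO and 405 to 415.5 with fatostatin, but 951 to 985 with EpA and 1142 to 1198 with both. This sum did not hold for each marker either. *Il9* had a mean of 54.6 FPKM with DMSO and 640 with EpA, and *Batf* 75.5 and 95.3. By contrast, *Irf4* was lower with EpA (143 against 156 FPKM), as was *Il4ra* (93.0 against 118). In bulk RNA, fewer cells of a type and less RNA per cell cannot be told apart. Markers of dendritic, NK, mast, and red cells were all below 1 FPKM in every library, as were 4 of 5 B cell markers (all but *Cd79b*, at most 7.43 FPKM) and 7 of 8 macrophage markers (all but *Cd68*, at most 2.33 FPKM). Of the 2 CD8 T cell markers, *Cd8b1* stood at 7.60 ± 0.426 FPKM with DMSO, 7.47 ± 0.404 with EpA, 7.64 ± 0.846 with fatostatin, and 7.25 ± 0.889 with both compounds (SD, n = 3), whereas *Cd8a* stood at 1.81 ± 0.182, 0.802 ± 0.0328, 1.52 ± 0.0807, and 0.491 ± 0.0767 FPKM in the same order. The sum of the 2 was 8.71 to 9.795 FPKM with DMSO, 7.85 to 8.57 with EpA, 8.55 to 10.2 with fatostatin, and 6.98 to 8.60 with both.

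The promoters of genes that carried the main differences are shown first. They were searched for strings of letters known as motifs of SREBP2 and its partner factors, and not every promoter held each motif. RefSeq promoters of GRCm38.p6 were matched by symbol for 26 of the 32 genes. The 250 bases upstream of the RefSeq start site are given 5′ to 3′ on the strand of the gene for *Hmgcs1* (chr13:119690101-119690350, plus strand), *Idi1* (chr13:8885356-8885605, plus strand), and *Cyp51* (chr5:4104698-4104947, minus strand), which were higher with EpA, for *Hsd17b7* (chr1:169969206-169969455, minus strand) and *Npc2* (chr12:84773113-84773362, minus strand), which were higher with fatostatin, and for *Mylip* (chr13:45389492-45389741, plus strand), which was lower with EpA. Capitals mark matches, on either strand, to the sterol regulatory element core TCACNCCAC, to the E-box CACGTG, and to the NF-Y box CCAAT.
Hmgcs1: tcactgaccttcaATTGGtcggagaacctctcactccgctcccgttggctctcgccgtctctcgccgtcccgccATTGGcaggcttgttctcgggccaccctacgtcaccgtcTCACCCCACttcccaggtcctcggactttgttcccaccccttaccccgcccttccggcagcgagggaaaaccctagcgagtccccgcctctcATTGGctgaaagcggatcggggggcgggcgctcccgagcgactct
Idi1: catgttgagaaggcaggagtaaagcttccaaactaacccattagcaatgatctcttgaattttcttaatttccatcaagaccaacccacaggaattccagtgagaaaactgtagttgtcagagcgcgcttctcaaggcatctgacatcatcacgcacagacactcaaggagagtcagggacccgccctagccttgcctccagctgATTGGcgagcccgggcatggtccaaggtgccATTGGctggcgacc
Cyp51: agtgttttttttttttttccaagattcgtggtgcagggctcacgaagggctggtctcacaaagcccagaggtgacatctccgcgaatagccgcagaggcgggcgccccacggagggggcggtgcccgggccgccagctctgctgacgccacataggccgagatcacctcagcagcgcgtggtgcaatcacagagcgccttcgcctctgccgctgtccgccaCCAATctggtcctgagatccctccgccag
Hsd17b7: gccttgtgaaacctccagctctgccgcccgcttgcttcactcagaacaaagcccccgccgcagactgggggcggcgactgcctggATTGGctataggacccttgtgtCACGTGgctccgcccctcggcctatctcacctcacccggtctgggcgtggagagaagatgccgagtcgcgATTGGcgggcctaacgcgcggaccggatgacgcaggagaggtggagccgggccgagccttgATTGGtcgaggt
Npc2: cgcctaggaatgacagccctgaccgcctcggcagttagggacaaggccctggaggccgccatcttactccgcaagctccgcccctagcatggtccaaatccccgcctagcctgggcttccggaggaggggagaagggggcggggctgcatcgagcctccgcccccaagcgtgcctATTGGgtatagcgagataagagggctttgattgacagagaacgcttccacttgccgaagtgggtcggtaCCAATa
Mylip: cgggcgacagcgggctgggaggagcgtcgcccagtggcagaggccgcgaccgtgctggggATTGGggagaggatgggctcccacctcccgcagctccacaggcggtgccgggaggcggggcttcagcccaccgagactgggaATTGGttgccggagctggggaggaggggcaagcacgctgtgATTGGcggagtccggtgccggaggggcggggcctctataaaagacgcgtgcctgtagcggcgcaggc

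In these windows, *Hmgcs1* held 1 sterol regulatory element core and 3 NF-Y boxes, and it alone of the 26 genes had a match to that core. *Hsd17b7* held 1 E-box and 3 NF-Y boxes. *Idi1* and *Npc2* each held 2 NF-Y boxes, *Cyp51* held 1, and *Mylip* held 3. GENCODE gene models start within some of these windows, so that the last 105 bases for *Idi1*, 49 for *Cyp51*, 36 for *Hsd17b7*, and 40 for *Npc2* lie inside them. Over the full 300 bases of the table (250 before and 50 after the start), the 26 genes had 32 promoters, since some have alternative starts. The sterol regulatory element core was in 1 of the 32 (3.12%), against 1.24% of all 32851 promoters. E-boxes were in 7 (21.9%, against 7.15%), in the genes *Scap*, *Insig1*, *Hsd17b7*, *Sc5d*, *Dhcr7*, and *Abca1*. These are counts of promoters and not of sites, since alternative starts can share a site, as both *Scap* promoters share 1 E-box. NF-Y boxes were in 21 (65.6%, against 37.4%), and GC boxes (GGGCGG) were in 26 (81.2%, against 35.7%). None of these matches overlapped a match to another of the motifs. A match is a string of letters and not evidence of binding, and the full set of promoters includes those of genes silent in T cells. Nor does a missing match show that a site is absent, since only these strings were searched and sites that differ from them were not counted.

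**Figure D1:**
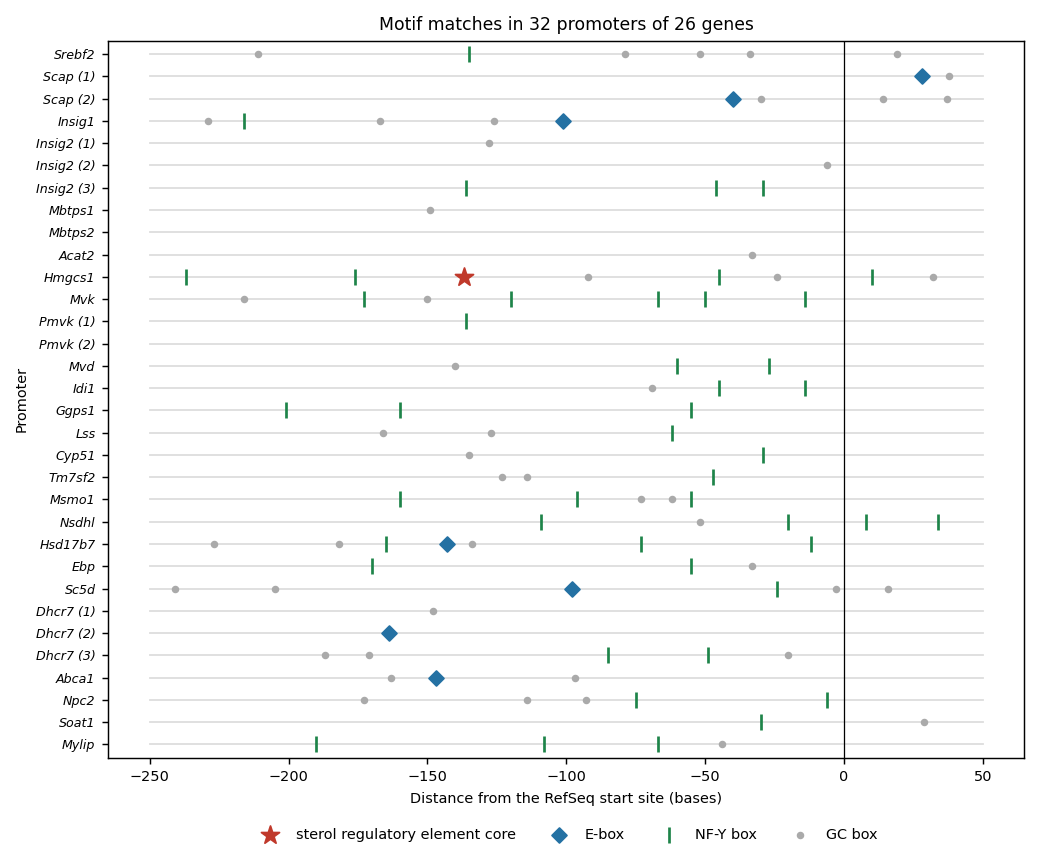
Positions of motif matches in the 32 RefSeq promoters of 26 cholesterol genes. The x axis is the distance from the start site in bases, each row is a promoter (alternative starts of a gene are numbered), and symbols mark the 4 motifs on either strand. The only star, for the sterol regulatory element core, is in the *Hmgcs1* promoter.

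In control cells, the genes spanned levels from 65.1 FPKM (*Npc2*, a lysosomal cholesterol carrier) to 1.01 FPKM (*Fdps*, farnesyl diphosphate synthase). *Cyp51*, the lanosterol demethylase, was the most abundant enzyme at 48.9 ± 0.573 FPKM (SD, n = 3). *Srebf2*, which encodes SREBP2, stood at 39.5 ± 0.644 FPKM, and *Insig1*, which encodes the sterol-regulated anchor of SCAP, stood at 39.1 ± 0.929 FPKM. These neighbors in the order, *Srebf2* and *Insig1*, overlapped across their DMSO libraries, as did *Insig1* and *Acat2* (38.3 ± 0.572 FPKM). The genes with the fewest reads were *Mylip* (79 to 221 reads per library) and *Fdps* (129 to 194 reads), so their values carry the largest counting error. *Fdps* is also uncertain because 91.4% of its transcript matches other genes, among them the overlapping *Gm43738*.

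**Figure D2:**
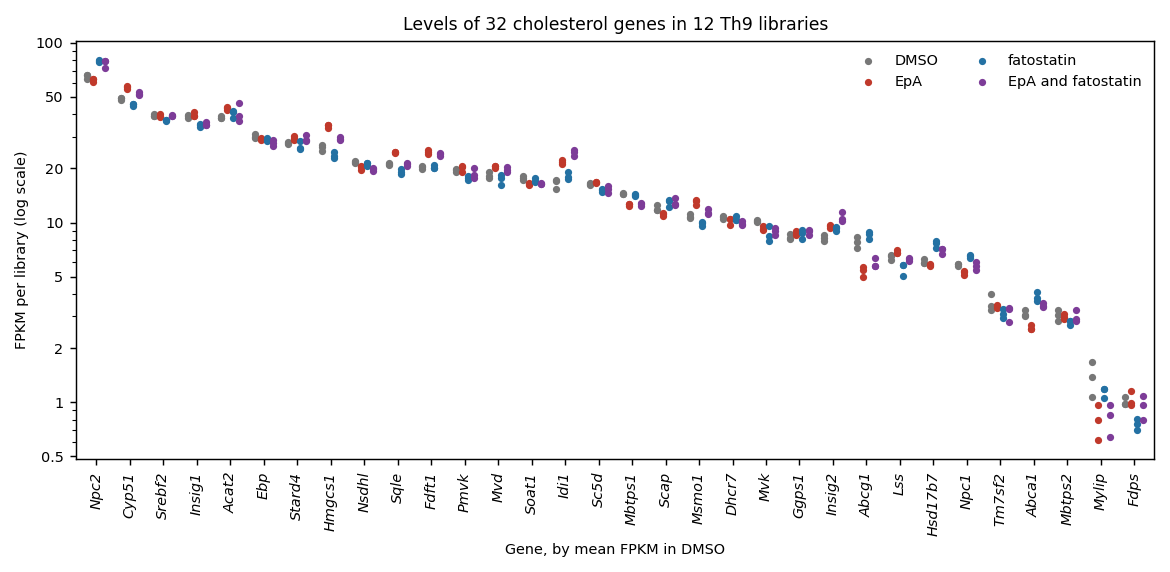
FPKM of the 32 genes in each of the 12 libraries on a log axis, ordered by the mean of the DMSO libraries. Points are libraries, colored by group; levels run from about 65.1 FPKM for *Npc2* to about 1.01 FPKM for *Fdps* in DMSO, and shifts between groups are small beside that range.

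Each compound changed the level of some of these genes, and nearly all changes were small. With EpA, 8 of 32 genes were higher than with DMSO (25.0%, against 14.3% of all tested genes) and 7 were lower (21.9%, against 13.1%), where a gene is called higher or lower at a limma adjusted p below 0.05. Of the 8, 7 were enzymes of synthesis, and of the 7, 5 were genes of efflux, lysosomal export, storage, or receptor turnover. With fatostatin, 5 were higher (15.6%, against 7.69% of all tested genes) and 9 were lower (28.1%, against 6.31%). With both compounds, 7 were higher (21.9%, near the 19.7% of all tested genes) and 10 were lower (31.2%, against 15.8%). The median log2 fold change of the 32 genes against DMSO was 0.013 (EpA), -0.066 (fatostatin), and -0.012 (both compounds), and the median of all tested genes was 0.0023, 0.0053, and 0.016.

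A change of 1.5-fold or more, the size that the study's methods used as a threshold, was reached by 1 gene with EpA (against 3.38% of all tested genes), 0 with fatostatin (against 1.86%), and 1 with both compounds (against 5.64%). In both cases the gene was *Mylip*, whose log2 fold changes of -0.72 and -0.68 were smaller than this size without DMSO replicate 2 (-0.58 and -0.54), without replicate 1 of its own treated group (-0.57 and -0.53), and with a pseudocount of 1 (-0.40 and -0.38). The count for fatostatin depended most on single libraries: 14 genes passed with all libraries, but 7 without DMSO replicate 3, 9 without fatostatin replicate 2, and 8 without fatostatin replicate 3.

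**Figure D3:**
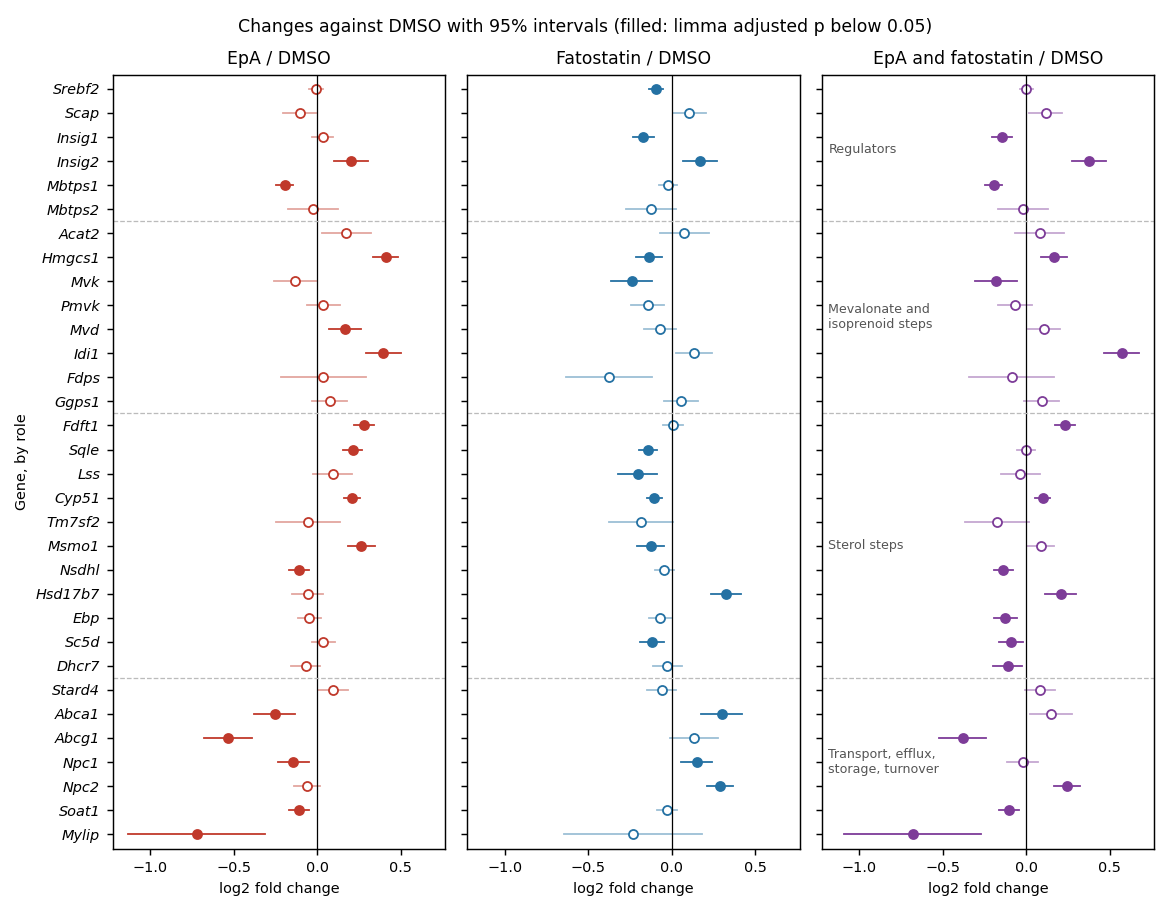
Log2 fold changes of the 32 genes against DMSO (x axis) in the EpA, fatostatin, and combination groups, grouped by role with dashed lines between roles. Points are estimates, bars are 95% confidence intervals, and filled points have a limma adjusted p below 0.05; the EpA panel has filled points to the right among the enzymes and to the left among the transport genes.

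Among the 6 regulators, EpA raised 1 (*Insig2*) and lowered 1 (*Mbtps1*), each 16.7% and near the 14.3% and 13.1% of all tested genes. Fatostatin raised 1 (*Insig2*, 16.7% against 7.69%) and lowered 2 (*Srebf2* and *Insig1*, 33.3% against 6.31%). *Srebf2* stood at 39.2, 39.0 and 40.2 FPKM in the DMSO libraries, 39.0, 38.8 and 39.9 with EpA, 37.0, 36.9 and 37.1 with fatostatin, and 39.8, 39.2 and 39.4 with both compounds. All 3 fatostatin libraries lay below every other library, by a small margin (log2 fold change -0.09 ± 0.0185 (SE), adjusted p = 0.00593 by limma), and EpA left the gene within its spread (log2 fold change -0.01, 95% interval -0.05 to 0.03). With both compounds, *Srebf2* was higher than with fatostatin alone (log2 fold change 0.09, adjusted p = 0.00286).

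*Scap*, the sterol-sensing escort of SREBP2, stood at 12.5, 11.7 and 11.8 FPKM in the DMSO libraries, 10.9, 11.3 and 11.2 with EpA, 12.2, 13.2 and 13.4 with fatostatin, and 12.6, 12.7 and 13.8 with both compounds. Its EpA libraries lay below the DMSO libraries without passing the test (log2 fold change -0.10, adjusted p = 0.111), and the fatostatin libraries overlapped those of DMSO (log2 fold change 0.10, adjusted p = 0.158). The only called difference was between both compounds and EpA (log2 fold change 0.22, adjusted p = 0.00603). An unstranded count could include reads of a gene that overlaps 13.2% of the *Scap* exons on the other strand.

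*Insig1*, a classical SREBP2 target whose product retains SCAP, stood at 38.1, 39.9 and 39.4 FPKM in the DMSO libraries, 41.5, 39.3 and 39.4 with EpA, 34.1, 34.9 and 35.3 with fatostatin, and 34.9, 34.9 and 36.4 with both compounds. The libraries with fatostatin, alone or with EpA, all lay below those without it. The fall was similar in size with fatostatin alone (log2 fold change -0.17 ± 0.0282 (SE), adjusted p = 0.00191 by limma) and when fatostatin was added to EpA (log2 fold change -0.18, adjusted p = 0.00131), whereas EpA left it within the spread (0.03, 95% interval -0.03 to 0.09).

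*Insig2*, whose product also retains SCAP, stood at 8.21, 8.57 and 7.91 FPKM in the DMSO libraries, 9.27, 9.55 and 9.64 with EpA, 9.01, 9.48 and 9.33 with fatostatin, and 10.4, 11.5 and 10.2 with both compounds. Each compound alone lay above DMSO and the combination above both, with no overlap. It rose with EpA (log2 fold change 0.20 ± 0.0462 (SE), adjusted p = 0.00693 by limma), with fatostatin (log2 fold change 0.17 ± 0.0462 (SE), adjusted p = 0.0303 by limma), and most with both compounds (log2 fold change 0.37 ± 0.0462 (SE), adjusted p = 7.55e-05 by limma). The call for fatostatin was lost when DMSO replicate 1 or 3 or fatostatin replicate 2 or 3 was left out (adjusted p up to 0.112), and that for both compounds against EpA when any EpA library or replicate 2 of both compounds was left out (adjusted p up to 0.092).

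*Mbtps1* and *Mbtps2* encode the proteases that release SREBP2 in the Golgi. *Mbtps1* stood at 14.6, 14.4 and 14.4 FPKM in the DMSO libraries, 12.7, 12.8 and 12.4 with EpA, 14.2, 14.1 and 14.4 with fatostatin, and 12.8, 12.4 and 12.6 with both compounds. The libraries split by EpA, with the 6 that received it all below the 6 that did not, and the fall with EpA was 0.20 on the log2 scale with DMSO as the reference (adjusted p = 0.000104) and 0.17 with fatostatin as the reference (adjusted p = 0.000246). *Mbtps2* ranged from 2.68 to 3.26 FPKM over all libraries and passed no test, with adjusted p from 0.281 to 0.982 in the 5 comparisons of groups.

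The 8 genes of the mevalonate and isoprenoid steps build farnesyl and geranylgeranyl diphosphates from acetyl-CoA units. With EpA, 3 of 8 were called higher (37.5%, against 14.3% of all tested genes) and 0 lower (against 13.1%) by limma, and 5 had an unadjusted p below 0.05 (4 higher and 1, *Mvk*, lower). Their median log2 fold change was 0.12, and that of all tested genes was 0.0023. With fatostatin, 0 were higher (against 7.69%) and 2 lower (25.0%, against 6.31%) by limma, 5 had an unadjusted p below 0.05 (4 lower and 1, *Idi1*, higher), and the median was -0.10 (0.0053 for all tested genes). With EpA, the largest changes were in *Hmgcs1* and *Idi1*.

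*Hmgcs1*, the HMG-CoA synthase whose promoter carries the sterol regulatory element core shown above, stood at 25.0, 26.9 and 26.2 FPKM in the DMSO libraries, 35.0, 33.8 and 34.8 with EpA, 24.8, 22.8 and 23.4 with fatostatin, and 28.6, 29.8 and 29.1 with both compounds. The 3 EpA libraries were the highest, those with both compounds came next, and DMSO and fatostatin followed with no overlap. The level rose 1.33-fold with EpA (log2 fold change 0.41 ± 0.0350 (SE), adjusted p = 7.94e-06 by limma) and 1.12-fold with both compounds (log2 fold change 0.17 ± 0.0350 (SE), adjusted p = 0.00328 by limma). Fatostatin lowered it in the presence of EpA (log2 fold change -0.24, adjusted p = 0.000713) and, less clearly, alone (log2 fold change -0.14, adjusted p = 0.0228). The latter call was lost without DMSO replicate 2 or 3 or fatostatin replicate 2 or 3 (adjusted p up to 0.0855). Exons of an antisense gene, *Gm48342*, cover 12.1% of the *Hmgcs1* exons.

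*Idi1*, the isomerase that makes dimethylallyl diphosphate, stood at 15.4, 17.3 and 16.9 FPKM in the DMSO libraries, 21.8, 22.2 and 21.2 with EpA, 19.1, 17.9 and 17.4 with fatostatin, and 25.3, 24.8 and 23.6 with both compounds. It was highest with both compounds, next with EpA, and the fatostatin libraries lay just above the DMSO libraries. The gene rose 1.32-fold with EpA (log2 fold change 0.40 ± 0.0482 (SE), adjusted p = 0.000113 by limma) and 1.48-fold with both (log2 fold change 0.57 ± 0.0482 (SE), adjusted p = 3.87e-06 by limma), the largest increase among the 32 genes in any comparison with DMSO. With fatostatin alone, the log2 fold change was 0.13 (adjusted p = 0.100), and the step from EpA to both compounds (log2 fold change 0.17, adjusted p = 0.0302) lost its call without any 1 EpA library, or without replicate 1 or 2 of both compounds (adjusted p up to 0.103). Other genes match 33.3% of the longest *Idi1* transcript.

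*Mvk*, mevalonate kinase, stood at 10.2, 10.1 and 10.3 FPKM in the DMSO libraries, 9.08, 9.26 and 9.54 with EpA, 7.93, 8.43 and 9.51 with fatostatin, and 8.92, 9.38 and 8.57 with both compounds. All treated libraries lay below the 3 DMSO libraries. It fell with fatostatin (log2 fold change -0.24 ± 0.0571 (SE), adjusted p = 0.0156 by limma) and with both compounds (log2 fold change -0.18, adjusted p = 0.0268), while the EpA difference did not pass (log2 fold change -0.13, adjusted p = 0.118). The call for fatostatin was lost without DMSO replicate 3 or fatostatin replicate 1 or 2 (adjusted p up to 0.0544), and that for both compounds without any 1 DMSO library or without replicate 1 or 3 of both compounds (adjusted p up to 0.0959).

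*Mvd*, the mevalonate diphosphate decarboxylase, was higher with EpA than with DMSO (log2 fold change 0.17, adjusted p = 0.0162) and higher with both compounds than with fatostatin (log2 fold change 0.18, adjusted p = 0.0110). Its first call was lost without DMSO replicate 1 or EpA replicate 1 or 3 (adjusted p up to 0.0635). The remaining members of the group passed no test in any comparison: *Acat2* (acetoacetyl-CoA thiolase), *Pmvk* (phosphomevalonate kinase), *Fdps*, and *Ggps1* (geranylgeranyl diphosphate synthase). *Fdps* had the largest uncalled difference, with 0.980, 1.07 and 0.973 FPKM with DMSO against 0.702, 0.805 and 0.757 with fatostatin (log2 fold change -0.38, adjusted p = 0.0540). The *Acat2* transcript is matched over 65.6% of its length by other genes, chiefly *Acat3*, so reads may have been split between them.

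The 11 genes of the sterol steps turn farnesyl diphosphate into squalene, lanosterol, and cholesterol. EpA raised 4 of them, *Fdft1*, *Sqle*, *Cyp51*, and *Msmo1* (36.4%, against 14.3% of all tested genes), and lowered 1, *Nsdhl* (9.09%, below the 13.1% of all). Fatostatin raised 1, *Hsd17b7* (9.09%, near the 7.69% of all), and lowered 5, *Sqle*, *Lss*, *Cyp51*, *Msmo1*, and *Sc5d* (45.5%, against 6.31%). With both compounds, 3 were higher than with DMSO (*Fdft1*, *Cyp51*, and *Hsd17b7*, 27.3% against 19.7%) and 4 were lower (*Nsdhl*, *Ebp*, *Sc5d*, and *Dhcr7*, 36.4% against 15.8%). The median log2 fold changes were 0.036, -0.10, and -0.036 in the same order.

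*Fdft1*, squalene synthase, stood at 20.4, 19.95 and 20.6 FPKM in the DMSO libraries, 24.7, 25.3 and 24.1 with EpA, 20.1, 21.0 and 20.04 with fatostatin, and 24.0, 23.3 and 24.2 with both compounds. The libraries split by EpA with no overlap. The rise was 1.21-fold with EpA (log2 fold change 0.28 ± 0.0271 (SE), adjusted p = 1.99e-05 by limma) and 1.17-fold when EpA was added to fatostatin (log2 fold change 0.23, adjusted p = 8.58e-05), and fatostatin alone gave a log2 fold change of 0.00 (95% interval -0.05 to 0.06). Reads of *Ctsb*, whose exons cover 18.3% of the *Fdft1* exons on the other strand, and of copies such as *Gm6781* could have entered this count.

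*Sqle*, squalene epoxidase, stood at 21.3, 20.9 and 21.4 FPKM in the DMSO libraries, 24.7, 24.6 and 24.3 with EpA, 18.7, 19.1 and 19.8 with fatostatin, and 21.5, 20.8 and 21.2 with both compounds. The EpA libraries were highest and the fatostatin libraries lowest, with the combination overlapping DMSO. It rose with EpA (log2 fold change 0.21 ± 0.0249 (SE), adjusted p = 8.82e-05 by limma) and fell with fatostatin (log2 fold change -0.14 ± 0.0249 (SE), adjusted p = 0.00281 by limma), and with both compounds the log2 fold change was -0.00 (95% interval -0.06 to 0.05).

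*Msmo1*, a methylsterol oxidase of the demethylation steps, stood at 10.7, 10.5 and 11.1 FPKM in the DMSO libraries, 13.1, 13.3 and 12.5 with EpA, 9.90, 10.1 and 9.62 with fatostatin, and 11.9, 11.1 and 11.4 with both compounds. Its order was the same, with EpA highest and fatostatin lowest, and the combination between EpA and DMSO. It rose 1.20-fold with EpA (log2 fold change 0.26 ± 0.0362 (SE), adjusted p = 0.000263 by limma), and fatostatin lowered it in the presence of EpA (log2 fold change -0.18, adjusted p = 0.00603). The fall with fatostatin alone (log2 fold change -0.13, adjusted p = 0.0385) kept its direction but not its call without DMSO replicate 1 or 3 or fatostatin replicate 1 or 3 (log2 fold change -0.13 to -0.10, adjusted p up to 0.136). *Cyp51* showed this order as well, with means of 48.9, 56.5, 45.4, and 52.3 FPKM for DMSO, EpA, fatostatin, and both (log2 fold change 0.21, adjusted p = 2.84e-05 for EpA and -0.10, adjusted p = 0.00674 for fatostatin).

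*Lss*, lanosterol synthase, stood at 6.16, 6.55 and 6.52 FPKM in the DMSO libraries, 6.99, 6.78 and 6.77 with EpA, 5.82, 5.83 and 5.05 with fatostatin, and 6.24, 6.14 and 6.37 with both compounds. Fatostatin libraries lay below all others, and EpA libraries above DMSO without passing the test (log2 fold change 0.09, adjusted p = 0.234). The fall with fatostatin (log2 fold change -0.20, adjusted p = 0.0251) kept its direction but not its call without DMSO replicate 2 or 3 (-0.19 in both cases, adjusted p up to 0.0825) and without fatostatin replicate 3, the lowest library (-0.14, adjusted p = 0.0556). The difference between both compounds and fatostatin (log2 fold change 0.17, adjusted p = 0.0341) was 0.10 without fatostatin replicate 3 (adjusted p = 0.0964), and without any 1 library of both compounds it was 0.15 to 0.18 and missed the threshold (adjusted p up to 0.0972).

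*Hsd17b7*, a ketoreductase of the demethylation steps, stood at 5.99, 5.93 and 6.23 FPKM in the DMSO libraries, 5.74, 5.85 and 5.82 with EpA, 7.74, 7.86 and 7.18 with fatostatin, and 6.72, 7.08 and 7.15 with both compounds. The 6 libraries with fatostatin all lay above the 6 without it. The rise was 1.25-fold with fatostatin (log2 fold change 0.32 ± 0.0416 (SE), adjusted p = 0.000321 by limma) and 1.20-fold when fatostatin was added to EpA (log2 fold change 0.26, adjusted p = 0.00134).

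The remaining sterol genes moved by small amounts. *Nsdhl*, a sterol dehydrogenase, fell by 0.11 on the log2 scale with EpA (adjusted p = 0.00962) and by 0.14 with both compounds (adjusted p = 0.00174), and its difference between both compounds and fatostatin (log2 fold change -0.09, adjusted p = 0.01999) was -0.08 and missed the threshold without fatostatin replicate 2 or 3 or replicate 2 of both compounds (adjusted p up to 0.078). *Sc5d*, a sterol desaturase, fell with fatostatin (log2 fold change -0.12, adjusted p = 0.0280), with both compounds against DMSO (log2 fold change -0.09, adjusted p = 0.0438), and with both against EpA (log2 fold change -0.13, adjusted p = 0.0187). Each of these *Sc5d* calls was lost when any of several libraries was left out: for fatostatin, any DMSO library or fatostatin replicate 2 or 3 (adjusted p up to 0.102). For both compounds against DMSO, they were any DMSO library or replicate 2 or 3 of the combination (adjusted p up to 0.163, with a log2 fold change of -0.06 without replicate 2), and against EpA they were EpA replicate 1 or 3 or replicate 2 of the combination (adjusted p up to 0.0615). *Ebp*, a sterol isomerase, was called only for both compounds against DMSO (log2 fold change -0.12, adjusted p = 0.00840). *Dhcr7*, a terminal reductase, was called only there too (log2 fold change -0.11, adjusted p = 0.0442), and lost its call without any 1 DMSO library or without replicate 1 or 3 of the combination (adjusted p up to 0.135). *Tm7sf2*, a sterol reductase, ranged from 2.78 to 3.99 FPKM and passed no test.

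**Figure D4:**
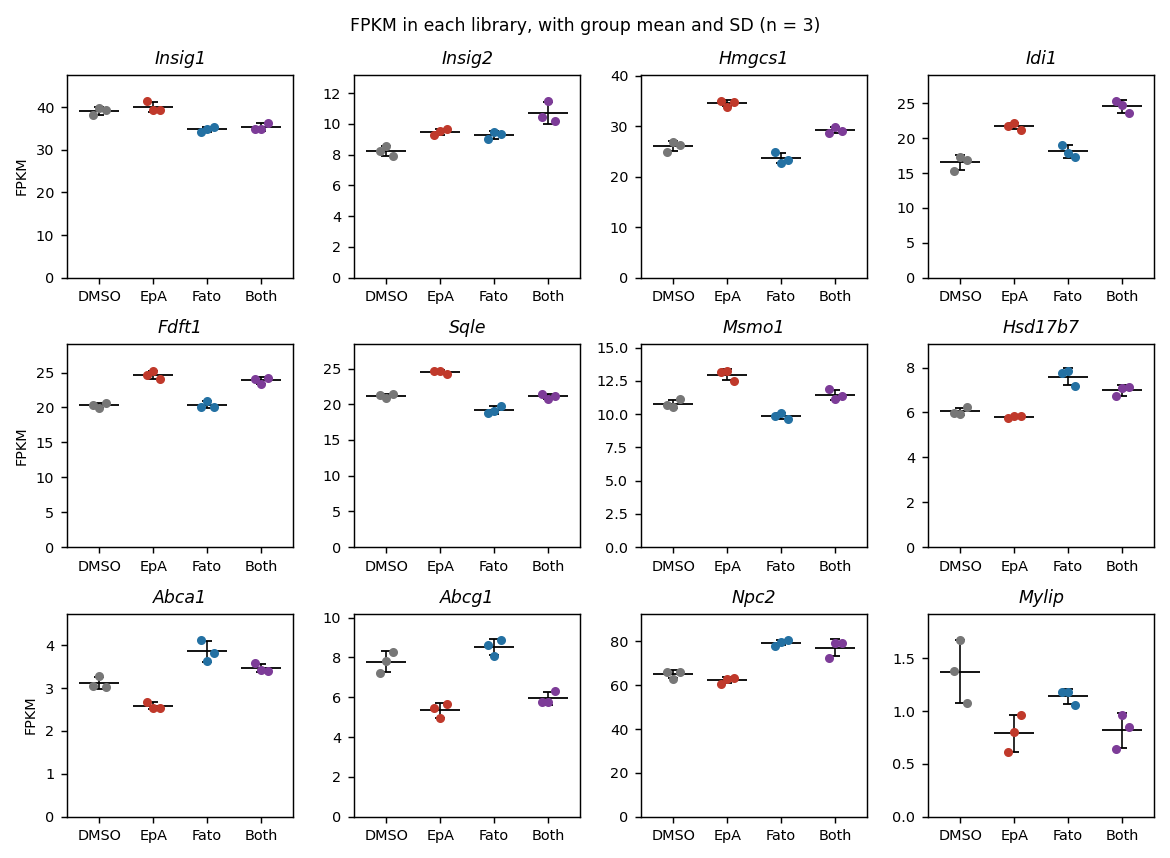
FPKM (y axis, from 0) of 12 of the genes in each library, by group (Fato, fatostatin; Both, EpA and fatostatin). Points are libraries, horizontal bars group means, and error bars SD (n = 3); *Hmgcs1* lies at 33.8 to 35.0 FPKM in the EpA libraries and 25.0 to 26.9 in the DMSO libraries, while *Npc2* and *Hsd17b7* split by fatostatin.

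The 19 enzymes of both groups of steps together stood at 333 to 336 summed FPKM with DMSO, 368 to 372 with EpA, 319 to 324 with fatostatin, and 345 to 353 with both compounds. The 4 groups did not overlap in this sum, which is given as a description with no test and is weighted toward abundant enzymes such as *Cyp51*.

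The 7 genes of transport, efflux, storage, and receptor turnover handle cholesterol once it is made or taken up. EpA lowered 5 of them, *Abca1*, *Abcg1*, *Npc1*, *Soat1*, and *Mylip* (71.4%, against 13.1% of all tested genes), and raised 0 by limma (against 14.3%). At an unadjusted p below 0.05 there were 6, the same 5 and *Stard4*, which was higher (log2 fold change 0.10). Their median log2 fold change was -0.14, and that of all tested genes was 0.0023. Fatostatin raised 3, *Abca1*, *Npc1*, and *Npc2* (42.9%, against 7.69%), and lowered 0 by limma (against 6.31%), the same 3 had an unadjusted p below 0.05, and the median was 0.13. The summed level of T cell markers was also lower with EpA, at 580 to 584 FPKM against 656 to 666 with DMSO, as was *Cd8a*, while *Cd4* was higher (86.8 against 78.2 FPKM). The part of these markers in the differences was not tested.

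*Abcg1*, which exports cholesterol to lipoprotein particles, stood at 7.22, 7.84 and 8.27 FPKM in the DMSO libraries, 5.44, 4.94 and 5.64 with EpA, 8.62, 8.09 and 8.87 with fatostatin, and 5.76, 5.75 and 6.32 with both compounds. The 6 libraries with EpA all lay below the 6 without it. The level with EpA was 0.691 of that with DMSO (log2 fold change -0.53 ± 0.0649 (SE), adjusted p = 0.000112 by limma), and with both compounds it was 0.700 of that with fatostatin (log2 fold change -0.51, adjusted p = 0.000131). Fatostatin alone left it with a log2 fold change of 0.13 (adjusted p = 0.223).

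*Abca1*, the exporter of cholesterol to lipid-poor apolipoproteins, stood at 3.05, 3.28 and 3.02 FPKM in the DMSO libraries, 2.68, 2.55 and 2.55 with EpA, 4.12, 3.64 and 3.81 with fatostatin, and 3.58, 3.42 and 3.39 with both compounds. The groups did not overlap, with EpA lowest and fatostatin highest. It fell with EpA (log2 fold change -0.26 ± 0.0568 (SE), adjusted p = 0.00598 by limma) and rose with fatostatin (log2 fold change 0.30 ± 0.0568 (SE), adjusted p = 0.00474 by limma), and the addition of fatostatin to EpA raised it 1.32-fold (log2 fold change 0.40, adjusted p = 0.000605). With both compounds against DMSO, the difference did not pass (log2 fold change 0.15, adjusted p = 0.0632).

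*Mylip* encodes IDOL, a ubiquitin ligase that degrades lipoprotein receptors and is, like the 2 exporters, a target of LXR. Its levels were 1.38, 1.67 and 1.07 FPKM in the DMSO libraries, 0.614, 0.800 and 0.964 with EpA, 1.18, 1.18 and 1.06 with fatostatin, and 0.641, 0.967 and 0.845 with both compounds. EpA libraries lay below DMSO libraries, but with a wide spread in each group. The level with EpA was 0.606 of that with DMSO (log2 fold change -0.72 ± 0.187 (SE), adjusted p = 0.0139 by limma) and with both compounds 0.624 (log2 fold change -0.68 ± 0.187 (SE), adjusted p = 0.0145 by limma). Without DMSO replicate 2, the highest library, these calls were lost (log2 fold change -0.58, adjusted p = 0.0586 for EpA, and -0.54, adjusted p = 0.0613 for both). The same held without EpA replicate 1 (-0.57, adjusted p = 0.0566) and without replicate 1 of both compounds (-0.53, adjusted p = 0.0587).

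*Npc2*, the soluble carrier that hands cholesterol to NPC1 in lysosomes, stood at 66.2, 62.9 and 66.2 FPKM in the DMSO libraries, 60.8, 62.7 and 63.4 with EpA, 78.0, 79.7 and 80.6 with fatostatin, and 72.6, 79.5 and 79.4 with both compounds. The 6 libraries with fatostatin all lay above the 6 without it. It rose 1.22-fold with fatostatin (log2 fold change 0.29 ± 0.0354 (SE), adjusted p = 0.000229 by limma) and 1.24-fold when fatostatin was added to EpA (log2 fold change 0.31, adjusted p = 0.000132), and EpA alone gave a log2 fold change of -0.06 (adjusted p = 0.221). The summed level of the 8 macrophage markers, genes of cells rich in lysosomes, was 1.33 to 1.44 FPKM with DMSO, 1.28 to 1.84 with EpA, 1.605 to 2.39 with fatostatin, and 1.90 to 2.92 with both, and its part in this rise was not tested.

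*Npc1*, the membrane partner of NPC2, was lower with EpA (log2 fold change -0.14, adjusted p = 0.0250) and higher with fatostatin (log2 fold change 0.15, adjusted p = 0.0362), and with both compounds it was lower than with fatostatin (log2 fold change -0.17, adjusted p = 0.0103). The EpA call was lost without DMSO replicate 2 or 3 or EpA replicate 1 (adjusted p up to 0.0935), and the fatostatin call was lost without any 1 of the 6 libraries compared (adjusted p up to 0.113). *Soat1*, which esterifies cholesterol for storage, fell by 0.11 on the log2 scale with EpA (adjusted p = 0.0119) and by 0.10 with both compounds (adjusted p = 0.0124, or 0.0518 without DMSO replicate 2). *Stard4*, a cytosolic sterol carrier and a known SREBP2 target, was called only as higher with both compounds than with fatostatin (log2 fold change 0.14, adjusted p = 0.0196), a call that was lost without fatostatin replicate 2 or 3 or replicate 1 of the combination (adjusted p up to 0.0766).

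The design also allows each compound to be read against the background of the other. EpA added to fatostatin raised 11 genes (34.4%, against 16.2% of all tested genes) and lowered 4 (12.5%, near the 13.3% of all). Fatostatin added to EpA raised 6 (18.8%, against 9.22%) and lowered 6 (18.8%, against 6.79%). The split over all called genes depended on scaling wherever both compounds were compared. In this last comparison, 57.6% of the called genes were higher on FPKM and 46.5% after median-of-ratios scaling. For both compounds against fatostatin these shares were 54.8% and 48.7%, and against DMSO they were 55.5% and 48.9%, so the shares of all tested genes called in each direction carry this limit. No called member changed direction under either scaling tried.

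The comparison of EpA with DMSO and that of both compounds with fatostatin share no libraries, but they come from the same fit. That fit has a shared estimate of the spread of each gene, so a gene with a small estimate is more easily called in both. The same holds for fatostatin without and with EpA. All 8 genes raised by EpA alone (100% of 8, and 72.7% of 11, against 76.1% and 67.1% over all tested genes so called) were also raised by EpA in the presence of fatostatin: *Insig2*, *Hmgcs1*, *Mvd*, *Idi1*, *Fdft1*, *Sqle*, *Cyp51*, and *Msmo1*. Of the genes lowered, 4 were shared (57.1% of 7, and 100% of 4, against 71.0% and 69.9%), namely *Mbtps1*, *Nsdhl*, *Abcg1*, and *Npc1*. For fatostatin, with and without EpA, 4 raised genes were shared (80.0% of 5, and 66.7% of 6, against 69.5% and 58.0%), namely *Insig2*, *Hsd17b7*, *Abca1*, and *Npc2*. The 6 genes that fatostatin lowered in the presence of EpA (100% of 6, and 66.7% of 9, against 58.3% and 62.8%) were *Insig1*, *Hmgcs1*, *Sqle*, *Cyp51*, *Msmo1*, and *Sc5d*, all of which it also lowered alone.

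**Figure D5:**
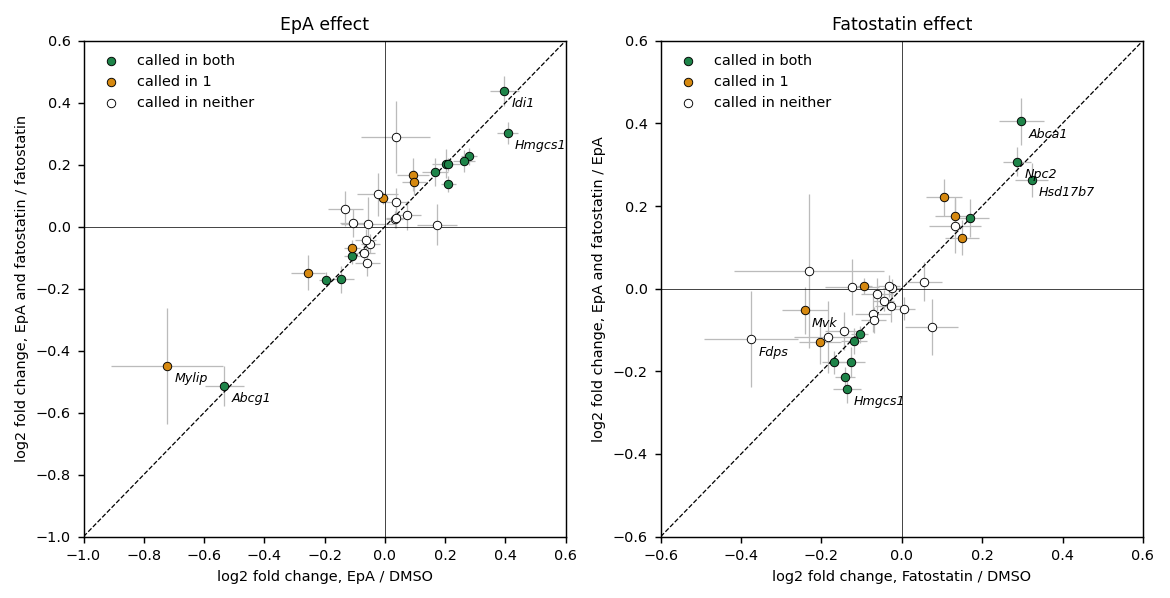
Log2 fold changes of the 32 genes for EpA without (x axis) and with (y axis) fatostatin, left, and for fatostatin without (x axis) and with (y axis) EpA, right. Points are genes, gray bars are SE, colors give the comparisons in which a gene had an adjusted p below 0.05, and the dashed line marks equal effects; *Idi1* and *Hmgcs1* lie at the top right and *Abcg1* and *Mylip* at the bottom left of the EpA panel.

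Whether the effect of EpA differed with fatostatin was tested as an interaction term. None of the 32 genes was called by limma (0, against 0.0437% of all tested genes, which is 6 genes, or 2 with TPM and 0 with median-of-ratios scaling), 2 had an unadjusted p below 0.05, and voom on reads recovered from the FPKM also called 0. Those 2 genes were *Srebf2* (difference 0.10 on the log2 scale, 95% interval 0.04 to 0.16, adjusted p = 0.365) and *Mvk* (difference 0.19, 95% interval 0.01 to 0.37, adjusted p = 0.604). For *Hmgcs1*, the interval of the difference was -0.21 to 0.00, and for *Idi1* it was -0.11 to 0.19. A missed threshold does not show that the effects were equal, and for *Mylip* the interval of -0.31 to 0.86 leaves room for a large difference.

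Pathway genes outside the 32 were counted from 4 further lists. The shares called over all tested genes were 14.3% higher and 13.1% lower with EpA, 7.69% and 6.31% with fatostatin, and 19.7% and 15.8% with both compounds. Of 12 genes of the isoprenoid and prenylation branch, limma called 2 higher (16.7%, near the share of all genes) and 0 lower with EpA, where 5 had an unadjusted p below 0.05, all higher. It called 0 in either direction with fatostatin (2 at an unadjusted p below 0.05, both lower), and 4 higher (33.3%) and 1 lower (8.33%) with both compounds. Of 9 partners of sterol sensing and turnover in the endoplasmic reticulum, 2 were higher and 2 lower with EpA (22.2% each), 1 higher (11.1%) and 0 lower with fatostatin (3 higher and 1 lower at an unadjusted p below 0.05 by limma), and 2 higher (22.2%) and 3 lower (33.3%) with both. Of 31 tested genes of other sterol handling and the LXR axis, 3 were higher (9.68%, below the share of all genes) and 9 lower (above it) with EpA. With fatostatin, 2 of them were higher (6.45%, near the share of all genes) and 4 lower (12.9%), and with both compounds 5 were higher (16.1%, below the share of all genes) and 10 lower (32.3%), while *Cyp27a1*, *Cyp7b1*, and *Hsd3b7* were too low to test. Of 16 genes of fatty acid synthesis, 3 were higher (18.8%) and 5 lower (31.2%) with EpA, 1 higher (6.25%) and 7 lower (43.8%) with fatostatin, and 5 higher and 5 lower (31.2% each) with both.

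Among these, *Srebf1*, which encodes SREBP1, the factor of fatty acid synthesis, is the paralog of *Srebf2*. It lay at 36.4 to 38.0 FPKM with DMSO, 30.4 to 31.4 with EpA, 33.8 to 35.0 with fatostatin, and 28.7 to 29.4 with both compounds, with no overlap among groups. Its log2 fold change was -0.27 with EpA, -0.12 with fatostatin, and -0.36 with both (limma adjusted p = 7.63e-06, 0.00391, and 4.19e-07). The genes of these lists that passed the test with at least a 1.5-fold change were *Lrp1*, *Vldlr*, and *Lpin1*. *Lrp1*, an endocytic receptor, was near the lower end of detection at 0.101 ± 0.0339 FPKM with DMSO and 0.489 ± 0.104 with both compounds (SD, n = 3), with log2 fold changes of 0.68 for EpA and 1.55 for both. *Vldlr*, another lipoprotein receptor, stood at 2.02 ± 0.226 FPKM with DMSO and 2.90 ± 0.154 with EpA (log2 fold change 0.51, adjusted p = 0.00111), and passed 1.5-fold for both compounds against fatostatin (0.63). *Lpin1*, a phosphatidate phosphatase, did so for both compounds against DMSO (0.59).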

How the data were processed

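RNA-seq was performed on Th9 cells of 4 groups with 3 libraries each. Per the study's methods, the authors used Trim Galore for trimming, HISAT2 for alignment to GRCm38 (the aligner and the build are also in the submitters' processing notes), and featureCounts for counting, and the values were deposited as FPKM. The annotation release and the use of strand in counting were not given in the sources used here. The table held 32352 lines for 32051 genes, 301 of them repeats with the same values, and 0 columns of no sample.

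Values were transformed to log2(FPKM + 0.1), which understates the changes of low genes, and a gene was tested if its 12 libraries averaged 0.1 FPKM or more. The 4 group means were estimated jointly with limma 3.58.1 (intensity trend) in R 4.3.3. This takes the place of the count test in the study's methods, since the deposited unit is FPKM. Tests were two-sided with Benjamini-Hochberg adjustment over the 13733 tested genes of each comparison. For 3 libraries against 3, the smallest p of an exact permutation test is 0.1. Reads were recovered with GENCODE M21 exon lengths, and per library 98.2% to 98.4% of values were within 0.02 of a whole read. Intervals are 95% confidence intervals from limma. Copies of the 32 genes were sought among GENCODE transcripts with blastn 2.17.0 (at least 300 matching bases at 90% identity).

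The 32 genes, their roles, the further lists, and the markers were chosen with earlier results of these data known. Values in every library are given for Srebf2, Scap, Insig1, and Insig2, for the 4 called genes that rose most and the 4 that fell most in each comparison with DMSO, and for any gene called in the interaction term. Genes outside the 32 are named if called with at least a 1.5-fold change, beside Srebf1. The alternatives were a pseudocount of 1, a minimum of 0 or 1 FPKM, TPM and median-of-ratios scaling, a fit of only the groups compared, no intensity trend, the replicate number as a block, voom on recovered reads, and each library left out in turn. Promoters and their motifs came from RefSeq (GRCm38.p6).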

Additional observations from a re-analysis of the deposited data

How the results depend on the processing

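Of the 73 calls over all comparisons, 52 kept their direction and passed the threshold under all alternatives, and none changed sign. With 1 library left out, 361 of 438 values still passed and 77 did not, and under the other alternatives 627 of 657 passed and 30 did not. For fatostatin against DMSO, the number of genes called ranged from 7 to 11 with 1 library left out (14 with all), where it was lowest without DMSO replicate 3. Without fatostatin replicate 2 it was 9 and without fatostatin replicate 3 it was 8, and a smaller group gives a wider error by construction. With the replicate block, the counts for EpA, fatostatin, and both compounds against DMSO were 15, 13, and 16, those for both compounds against EpA and against fatostatin were 12 and 14, and that for the interaction was 0. Nothing in the labels says that the numbers mark shared samples, same-numbered libraries of different groups had correlations of -0.047 to 0.074, and 5 of 12 libraries correlated best with a library of their own number. Voom on recovered reads gave 17, 14, 19, 14, 18, and 0 in the same order. Of 119 values that were not called, 38 changed sign under some alternative and 18 passed under at least 1, so the directions of uncalled genes are not firm. Depth limits Mylip and Fdps most.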
